A study of Mus musculus with 12 samples.

Results

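Transcripts of the T cell receptor complex and of its first signalling steps were examined in libraries labelled as sorted glomerular endothelial cells (GEC). The 10 genes, *Trac*, *Trbc2*, *Cd3d*, *Cd3e*, *Cd3g*, *Cd4*, *Cd8a*, *Lck*, *Zap70* and *Rasgrp1*, were taken by their gene names from the 19564 genes listed in either of the count tables. All 10 were among the 17811 genes of the dimtdT table, and 6 were among the 17521 genes of the brighttdT table, from which *Cd3d*, *Cd3e*, *Cd3g* and *Cd4* were absent. Cells labelled as GEC came from the glomeruli of 3 wild type (WT) and 3 Alport syndrome (AS) mice. They were sorted by the brightness of the reporter tdTomato into a dimtdT and a brighttdT subpopulation, which gave 4 groups of 3 libraries. All mice were 4 months old, on the C57BL/6 strain and sex-matched, and all carried a Tek-cre transgene and a Cre-dependent tdTomato reporter. The AS mice were labelled Col4a5 -/- and came from the strain B6.Cg-Col4α5tm1Yseg/J, mutated in the gene for a collagen IV chain of the glomerular basement membrane. Tek-cre is driven by the promoter of an endothelial receptor gene, and such transgenes are known to recombine in blood cells as well as in endothelium, while the study used the reporter as a label of endothelial cells.

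The T cell receptor is a pair of antigen-binding chains, most often alpha and beta, held at the surface by the signalling chains CD3 gamma, delta, epsilon and zeta. When the receptor meets a peptide on an MHC molecule, the coreceptor CD4 or CD8 brings in the kinase Lck, which phosphorylates the CD3 tails. The kinase Zap70 then docks there and phosphorylates adaptors, from which calcium, NF-kappaB and Ras signals follow, the last through the exchange factor Rasgrp1. T cells patrol the kidney in health and gather there in chronic glomerular disease, while the receptor chains are not genes of the endothelial programme.

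Counts on genes per library ranged from 11440169 to 15074909. The cell type on the labels was checked against 7 endothelial markers, whose summed level was 9352 to 15020 CPM (counts per M counts of a library, TMM-scaled) in the brighttdT libraries, 549 to 1073 CPM in WT-dimtdT and 154 to 223 CPM in AS-dimtdT. The 4 pan-leukocyte markers summed to 5614 to 9516 CPM in WT-dimtdT and 9515 to 10278 CPM in AS-dimtdT, against 19.5 to 78.2 CPM in the brighttdT libraries. Most of that sum in the dimtdT libraries was *Coro1a*, and the other 3, *Ptprc*, *Cd52* and *Laptm5*, summed to 1500 to 2206 CPM in WT-dimtdT and 2583 to 3014 CPM in AS-dimtdT. With or without *Coro1a*, these sums were above the endothelial sum in each dimtdT library and below it in each brighttdT library, so the markers of the dimtdT libraries went against the endothelial label, and these libraries are called by their sort below. All 5 B cell, 7 natural killer, 7 macrophage and 4 neutrophil markers were also listed in the dimtdT libraries. The summed macrophage markers were at 2619 to 4529 CPM in WT-dimtdT and 6216 to 8291 CPM in AS-dimtdT, most of it *Lyz2* (means 3189 and 6345 CPM), and 3 of the 7, *Lyz2*, *Csf1r* and *Adgre1*, were called higher in AS by edgeR while the other 4 overlapped. The summed dendritic cell markers were at 59.7 to 87.1 CPM in WT and 113 to 138 CPM in AS, where *Itgax* was the 1 of 5 without overlap and 0 passed. The summed mesangial markers were at 121 to 174 CPM in WT and 53.9 to 97.2 CPM in AS, with 2 of 4 below WT without overlap and 0 called, and the summed proximal tubule markers at 736 to 3230 and 8.12 to 256 CPM, with 5 of 5 below and 2 called. The part of these shifts in the results below was not tested. The brighttdT libraries held such markers too, all below their endothelial sums. Mesangial sums there were 390 to 851 CPM in WT and 430 to 778 CPM in AS. Proximal tubule sums were 240 to 1406 and 40.5 to 264 CPM, and podocyte marker sums 941 to 1128 and 1220 to 1344 CPM. *Col4a5*, the gene mutated in AS, was at 59.5 ± 19.6 CPM (SD, n = 3) in WT-dimtdT and 2.26 ± 1.13 CPM (SD, n = 3) in AS-dimtdT, whereas in brighttdT GEC its libraries overlapped between WT (6.95 ± 3.26 CPM) and AS (4.56 ± 1.93 CPM). The level of *Col4a5* therefore separated the genotypes in the dimtdT libraries only, where the summed podocyte markers were at 453 to 936 CPM in WT and 174 to 216 CPM in AS, with 3 of 4 called lower.

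The question of whether T cell receptor transcripts differed between AS and WT was asked first in the dimtdT libraries, where all 10 genes could be tested. *Cd4*, *Cd3e*, *Lck* and *Cd8a* were higher in each of the 3 AS-dimtdT libraries than in any WT-dimtdT library, while *Trac*, *Trbc2*, *Cd3d*, *Cd3g*, *Zap70* and *Rasgrp1* overlapped. By edgeR's quasi-likelihood test, two-sided and adjusted over 14637 genes, 0 of the 10 passed the threshold of 0.05, beside 8.62% of all genes, and 3 of the 10 had an unadjusted p under 0.05, near the 26.3% of all genes that did. A likelihood ratio test in edgeR and DESeq2 each called 2 of the 10 higher, in both cases *Cd3e* and *Cd4*, beside 3.7% and 4.52% of all genes called higher. Groups did not overlap, with AS higher, for 15% of all genes tested and, with AS lower, for 16.2%, against 4 and 0 of these 10. In bulk RNA, fewer cells of a type and less RNA per cell cannot be told apart, which holds for each difference below. The median log2 fold change of the 10 genes was 0.36, against -0.02 over all genes tested, and was 0.15 without AS-dimtdT library 2 and 0.54 without AS-dimtdT library 3. The plot of log2 fold changes shows which of the 10 stood apart from zero.

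**Figure D1:**
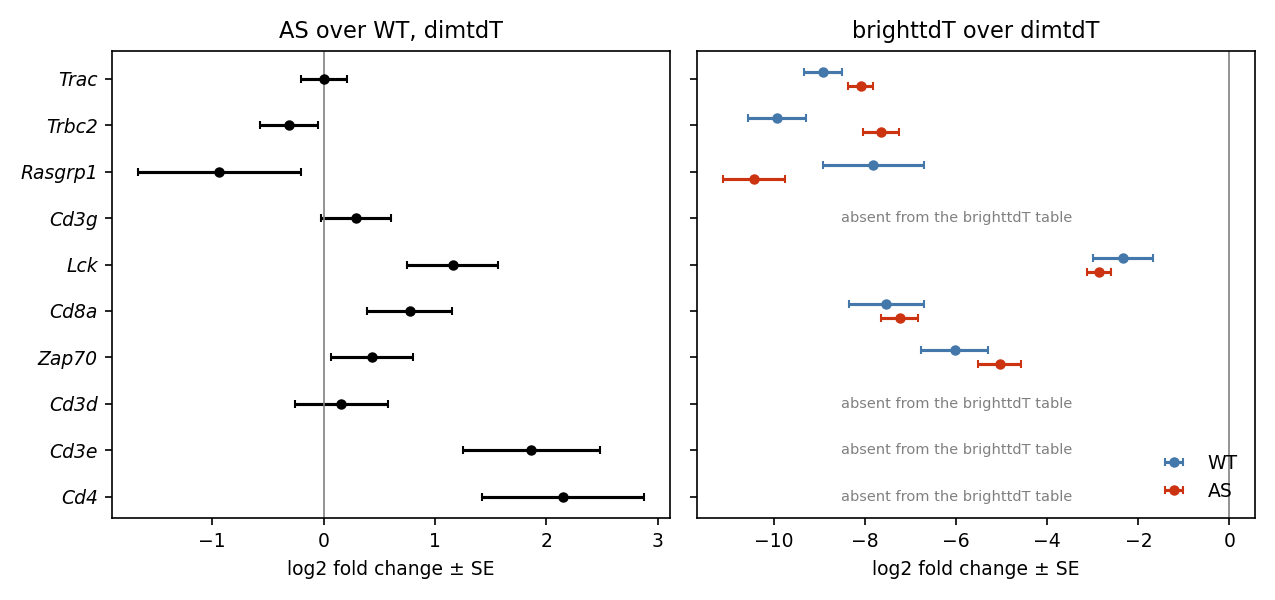
Log2 fold changes (x axis, points) with their standard errors (bars) for each gene (y axis), AS over WT in the dimtdT libraries on the left and brighttdT over dimtdT in WT (blue) and AS (red) on the right. *Cd4* and *Cd3e* lie farthest right in the left panel, at 2.15 and 1.87, and none of the 10 passed the test there, while each point in the right panel lies below zero. The points of *Trbc2* in WT and of *Rasgrp1* in AS rest on 3 and 1 brighttdT reads, and genes other than *Lck* entered the right panel only through their dimtdT counts.

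*Trac* and *Trbc2* encode the constant regions of the receptor's alpha and beta chains. *Trac* (chr14:54220521-54224206, plus strand, GRCm38) had 1649, 1907 and 1286 reads in the WT-dimtdT libraries 1 to 3 and 1841, 1829 and 1818 in the AS-dimtdT libraries, the highest count of the 10 genes in all but 1 dimtdT library. Its groups overlapped, at 138 ± 27.9 CPM in WT and 139 ± 10.9 CPM in AS (SD, n = 3 each), with a log2 fold change of 0.01 (SE 0.21, adjusted p = 0.985, edgeR). *Trbc2* (chr6:41546730-41548352, plus strand) had 617, 924 and 1144 reads in WT-dimtdT and 1079, 680 and 695 in AS-dimtdT, with a log2 fold change of -0.31 (SE 0.26, adjusted p = 0.505, edgeR). The WT counts spanned all 3 AS counts. *Trbc1*, the neighbouring beta constant gene, had 742, 708 and 583 reads in WT-dimtdT and 729, 593 and 399 in AS-dimtdT. The constant regions of *Trbc1* and *Trbc2* are near-identical, so how reads were split between them is uncertain, and the share of *Trbc2* in their sum, 45.4% to 66.2% in WT and 53.4% to 63.5% in AS, overlapped as well. In the brighttdT libraries *Trac* had 3, 6 and 3 reads in WT and 6, 9 and 7 in AS, and *Trbc2* had 2, 0 and 1 in WT and 1, 5 and 7 in AS.

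*Cd3g*, *Cd3d* and *Cd3e* encode the gamma, delta and epsilon chains, without which the alpha and beta chains do not reach the cell surface. The genes form 1 cluster on chromosome 9 (GRCm38), with *Cd3g* (chr9:44969572-44980431, minus strand) and *Cd3d* (chr9:44981786-44987339, plus strand) transcribed away from each other across 1354 bases, and *Cd3e* (chr9:44998740-45009627, minus strand) 11400 bases beyond *Cd3d*. Because these neighbours differed in their values, the 250 bases before each annotated start are shown from RefSeq (GRCm38.p6), at chr9:44980432-44980681 on the minus strand for *Cd3g*, chr9:44981536-44981785 on the plus strand for *Cd3d* and chr9:45009612-45009861 on the minus strand for *Cd3e*. Capitals mark matches, on either strand, to the ETS core GGAAG, the RUNX core TGTGGT, the E-box CAGGTG bound by E proteins and the cyclic AMP half-site TGACGT.
Cd3g: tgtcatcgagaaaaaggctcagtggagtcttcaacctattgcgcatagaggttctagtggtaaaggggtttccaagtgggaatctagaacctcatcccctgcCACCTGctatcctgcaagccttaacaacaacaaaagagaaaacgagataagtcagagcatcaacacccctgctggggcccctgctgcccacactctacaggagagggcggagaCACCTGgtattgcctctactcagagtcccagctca
Cd3d: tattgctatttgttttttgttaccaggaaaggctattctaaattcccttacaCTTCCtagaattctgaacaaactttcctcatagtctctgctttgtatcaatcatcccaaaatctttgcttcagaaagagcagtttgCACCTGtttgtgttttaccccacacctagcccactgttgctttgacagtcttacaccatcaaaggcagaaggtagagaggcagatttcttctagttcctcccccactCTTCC
Cd3e: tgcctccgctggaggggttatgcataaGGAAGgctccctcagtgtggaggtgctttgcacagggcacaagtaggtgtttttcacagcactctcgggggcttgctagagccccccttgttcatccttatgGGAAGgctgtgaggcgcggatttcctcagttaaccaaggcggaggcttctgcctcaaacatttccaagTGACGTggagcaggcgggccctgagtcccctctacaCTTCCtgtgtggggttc
The *Cd3g* window held 2 matches to CAGGTG and 0 to GGAAG, the *Cd3d* window 1 and 2, and the *Cd3e* window 0 and 3 with 1 match to TGACGT. None of these 3 windows held TGTGGT. Of 32851 RefSeq windows of the same length, 64.1% held GGAAG, 14.0% TGTGGT, 17.2% CAGGTG and 6.47% TGACGT, so the first is common to most promoters. A match is a description of the letters only, and windows were found for 7 of the 10 genes, with none for *Trac*, *Trbc2* and *Cd4*.

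*Cd3e* had 35, 52 and 69 reads in the WT-dimtdT libraries and 437, 128 and 97 in the AS-dimtdT libraries, so that each AS value was above each WT value and AS library 1 stood far above the others. The means were 4.42 ± 1.32 CPM in WT and 16.03 ± 12.3 CPM in AS (SD, n = 3 each), and the fitted difference was 3.64-fold (log2 fold change 1.87, SE 0.62, unadjusted p = 0.0159, adjusted p = 0.0982, edgeR), and the adjusted p lay between 0.0233 and 0.352 over 13 alternative settings. Without AS-dimtdT library 1 the log2 fold change was 0.99 (adjusted p = 0.352, edgeR). *Cd3d* had 51, 82 and 50 reads in WT-dimtdT and 92, 78 and 61 in AS-dimtdT, and *Cd3g* had 297, 449 and 282 in WT-dimtdT and 464, 591 and 351 in AS-dimtdT. Both overlapped between genotypes, with log2 fold changes of 0.16 (SE 0.42) for *Cd3d* and 0.29 (SE 0.31) for *Cd3g* (adjusted p = 0.850 and 0.612, edgeR). *Cd3e* is overlapped by Gm48719 on the other strand and Gm48720 on the same strand, neither of which was listed in the count tables, and the strand used for counting is not given in the sources used here.

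The share of *Cd3e* in the reads of the 3 CD3 genes was taken within each library, free of library scaling. It was 9.14% (95% Wilson interval 6.64% to 12.4%), 8.92% (6.87% to 11.5%) and 17.2% (13.8% to 21.2%) in WT-dimtdT libraries 1 to 3. In AS-dimtdT it was 44.0% (40.9% to 47.1%), 16.1% (13.7% to 18.8%) and 19.1% (15.9% to 22.7%). The groups thus overlapped, between 17.2% in WT library 3 and 16.1% in AS library 2, and 1 AS mouse was far from the rest. Such intervals cover counting error only. With 3 mice against 3, an exact permutation test of a single value cannot go below p = 0.1, so none was used for shares.

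**Figure D2:**
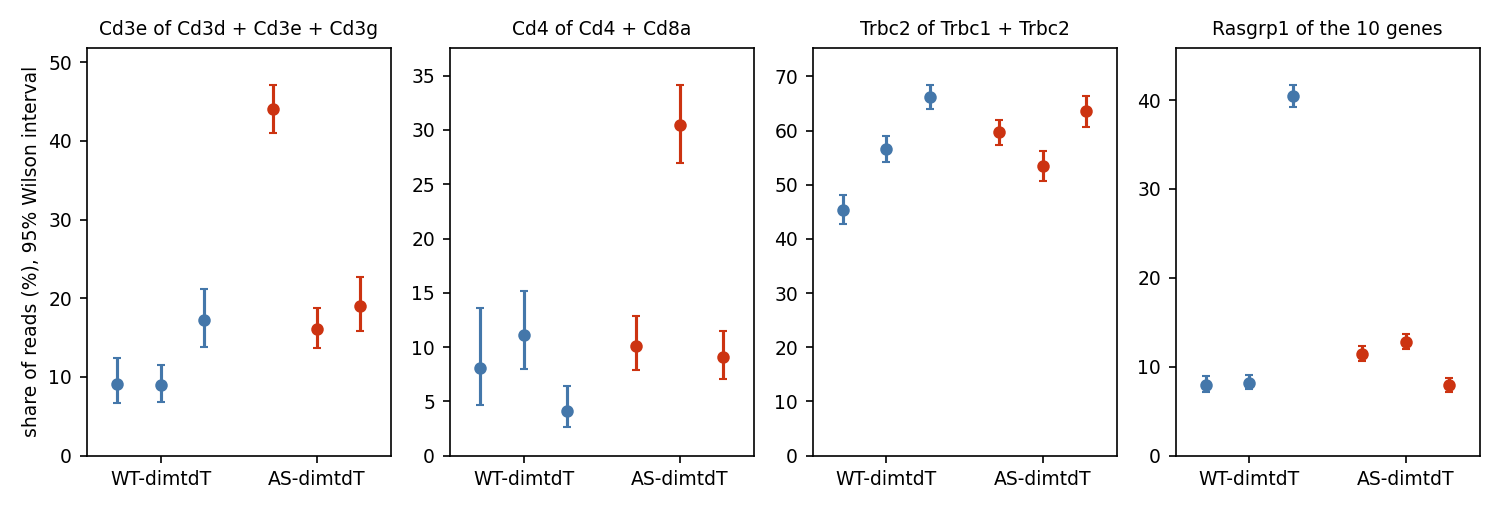
Shares of reads (y axes, percent, each from 0) in each WT-dimtdT (blue) and AS-dimtdT (red) library, as points with 95% Wilson intervals, for *Cd3e* among the CD3 genes, *Cd4* among *Cd4* and *Cd8a*, *Trbc2* among *Trbc1* and *Trbc2*, and *Rasgrp1* among the 10 genes. AS library 1 is high for *Cd3e* (44.0%), AS library 2 for *Cd4* (30.4%) and WT library 3 for *Rasgrp1* (40.4%).

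*Cd4* and *Cd8a* encode the coreceptors of helper and of cytotoxic T cells. *Cd4* (chr6:124864692-124888221, minus strand) had 12, 32 and 18 reads in WT-dimtdT and 58, 188 and 60 in AS-dimtdT, with no overlap. The means were 1.76 ± 0.847 CPM in WT and 7.98 ± 6.302 CPM in AS (SD, n = 3 each), and the fitted difference was 4.45-fold (log2 fold change 2.15, SE 0.73, unadjusted p = 0.0179, adjusted p = 0.105, edgeR), the largest of the 10 genes. The adjusted p lay between 0.0282 and 0.283 over 13 alternative settings, and without AS-dimtdT library 2 the log2 fold change was 1.25 (adjusted p = 0.283, edgeR). *Cd8a* (chr6:71373427-71379173, plus strand) had 136, 257 and 418 reads in WT-dimtdT and 515, 430 and 603 in AS-dimtdT, all AS libraries above all WT libraries, with a log2 fold change of 0.77 (SE 0.38, adjusted p = 0.243, edgeR). *Cd8b1*, the partner chain of *Cd8a*, had 243, 168 and 233 reads in WT-dimtdT and 382, 362 and 545 in AS-dimtdT, with a log2 fold change of 0.83 (SE 0.31, adjusted p = 0.131, edgeR). Both CD8 chains and *Cd4* were thus higher in every AS-dimtdT mouse without passing the test. In each dimtdT library *Cd8a* had more reads than *Cd4*, whose share of their sum was 4.13% to 11.1% in WT and 9.05%, 10.1% and 30.4% in AS, so that the groups overlapped and AS library 2 stood apart. In brighttdT GEC, *Cd8a* had 3, 2 and 0 reads in WT and 4, 6 and 1 in AS.

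*Lck* and *Zap70* encode the kinases that act in turn on the engaged receptor. *Lck* (chr4:129548344-129573641, minus strand, with Mir8119 inside it) had 209, 341 and 110 reads in WT-dimtdT and 460, 630 and 559 in AS-dimtdT. The lowest AS library was above the highest WT library, at means of 18.8 ± 9.82 CPM in WT and 42.1 ± 9.76 CPM in AS (SD, n = 3 each), with a log2 fold change of 1.16 (SE 0.41, unadjusted p = 0.0216, adjusted p = 0.117, edgeR). Over 14 alternative settings its log2 fold change stayed between 0.83 and 1.57 and its adjusted p between 0.0668 and 0.293. *Zap70* (chr1:36761798-36782818, plus strand) had 134, 110 and 93 reads in WT-dimtdT and 202, 195 and 120 in AS-dimtdT, which overlapped (log2 fold change 0.44, SE 0.37, adjusted p = 0.504, edgeR). *Zap70* is overlapped by the pseudogene Gm18828 on the other strand, not listed in the count tables.

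*Rasgrp1* encodes the exchange factor that turns on Ras below the receptor and is also known from other blood cells. *Rasgrp1* (chr2:117279993-117343001, minus strand) had 272, 372 and 2357 reads in WT-dimtdT and 665, 698 and 376 in AS-dimtdT, so that 1 WT library was far above the other 5 dimtdT libraries. That library, WT-dimtdT 3, gave *Rasgrp1* 40.4% of the reads on the 10 genes (95% Wilson interval 39.2% to 41.7%), against 7.93% to 12.8% in the others. The summed neutrophil markers were also highest there, at 899 CPM against 127 to 303 CPM in the other dimtdT libraries, though only for 3 of the 4 genes and not for *Ly6g*. The summed B cell markers were at 1057 CPM there against 558 to 926 CPM, with 3 of 5 genes highest. Podocyte markers summed to 936 CPM there against 174 to 766 CPM, with 3 of 4 genes highest. The part of any of these in the *Rasgrp1* value was not tested. The log2 fold change of -0.94 (SE 0.73, adjusted p = 0.471, edgeR) turned to 0.66 (adjusted p = 0.240) without WT-dimtdT library 3, and neither passed. In the brighttdT libraries *Rasgrp1* had 9, 6 and 1 reads in WT and 0, 1 and 0 in AS.

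Levels of different genes were compared per kb of exon in the dimtdT libraries. In WT the order ran from *Trac* (148 CPM per kb) and *Trbc2* (110) through *Rasgrp1* (14.99), *Cd3g* (8.95), *Lck* (6.43), *Cd8a* (6.29), *Zap70* (3.22) and *Cd3d* (2.87) to *Cd3e* (1.08) and *Cd4* (0.435). Neighbours in that order overlapped between libraries except *Trbc2* above *Rasgrp1*, *Cd3d* above *Cd3e*, and *Cd3e* above *Cd4*. In AS the order was *Trac* (149 CPM per kb), *Trbc2* (88.5), *Lck* (14.4), *Cd3g* (10.9), *Cd8a* (10.8), *Rasgrp1* (7.85), *Zap70* (4.36), *Cd3e* (3.93), *Cd3d* (3.20) and *Cd4* (1.98), in which only *Trac* above *Trbc2* and *Trbc2* above *Lck* did not overlap. Among the 3 CD3 chains, which sit in 1 complex, *Cd3g* was above *Cd3d* and *Cd3e* in each dimtdT library by this measure. The measure divides by the merged exons of all annotated transcripts. The part of this, or of the overlap of *Cd3e* with Gm48720, in that order was not tested. *Cd4* was lowest in both genotypes. *Trbc1*, not among the 10 genes, was at 77.6 CPM per kb in WT and 57.6 in AS. How reads were split between it and *Trbc2* is uncertain, so the level of *Trbc2* is not that of all beta chain transcripts.

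**Figure D3:**
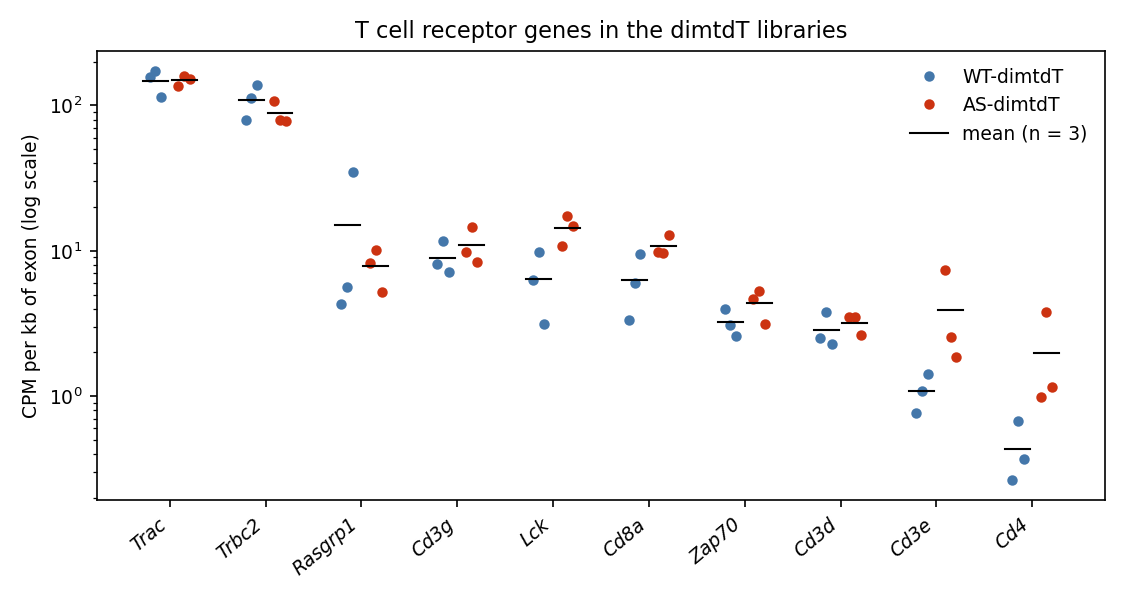
Levels of the 10 genes in the dimtdT libraries (y axis, CPM per kb of exon, log scale), with 1 point for each WT (blue) and AS (red) library and a line at the mean of 3, ordered by the WT mean. All points of *Trac* and *Trbc2* lie above those of the other 8 genes, and the AS points of *Lck*, *Cd8a*, *Cd3e* and *Cd4* lie above all their WT points.

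Since the pan-leukocyte gene *Ptprc* (CD45) was itself at 884 ± 204 CPM in WT-dimtdT and 1341 ± 70.0 CPM in AS-dimtdT (log2 fold change 0.60, SE 0.19, adjusted p = 0.0910, and 0.0241 without WT-dimtdT library 3, edgeR), each gene was also set against *Ptprc* within its library. *Cd3e* reads were 0.440%, 0.524% and 0.519% of *Ptprc* reads in WT-dimtdT and 2.26%, 0.813% and 0.535% in AS-dimtdT, still without overlap. *Cd4* reads were 0.151%, 0.323% and 0.135% of *Ptprc* in WT and 0.301%, 1.19% and 0.331% in AS, and here the groups overlapped, as they did for *Lck* and *Cd8a*. *Trbc2* lay the other way, at 7.75%, 9.32% and 8.60% in WT and 5.59%, 4.32% and 3.83% in AS. On this scale 2.68% of all genes lay above WT and 36.3% below WT in every AS library, so a gene that lay below, as *Trbc2* did, was like many genes. *Trac* was 20.7%, 19.2% and 9.67% of *Ptprc* in WT and 9.54%, 11.6% and 10.03% in AS, which overlapped by 1 WT library.

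The rest of the pathway was read from a list of 46 further T cell signalling genes, of which 45 could be tested in the dimtdT libraries. None passed for AS over WT, with 0 higher and 0 lower by edgeR's quasi-likelihood test, and 13 with an unadjusted p under 0.05, beside the 26.3% of all genes given above. DESeq2 called 5 higher and the likelihood ratio test 3, beside 4.52% and 3.7% of all genes, with 0 lower by either. Without WT-dimtdT library 3, 4 of the list were higher and 2 lower, beside 2.93% and 8.94% of all genes, and without WT-dimtdT library 2, 2 were higher, beside 0.798%. *Foxp3* and *Cd40lg* passed the filter on low counts only through AS and only through WT libraries. The calls above by DESeq2, by the likelihood ratio test and with a library left out could include either gene, so nothing is read from them. Both genes are left out of the next counts. In 12 of the other 43 all AS libraries were above all WT libraries, beside the 15% of all genes given above, and in 1, *Txk*, a tyrosine kinase, they were all below. By role, the 8 kinases and phosphatases had 4 above and 1 below without overlap, the 15 adaptors and effectors 4 and 0, the 8 transcription factors 2 and 0, the 8 costimulatory and inhibitory receptors 1 and 0, and the 4 other receptor chains and coreceptor 1 and 0. The median log2 fold change of the 45 tested genes, *Foxp3* and *Cd40lg* included, was 0.22, against -0.02 over all genes. It was 0.37 without WT-dimtdT library 2 and 0.15 without WT-dimtdT library 1. *Cd247*, the zeta chain, had 1599, 1904 and 942 reads in WT-dimtdT and 1360, 1302 and 1152 in AS-dimtdT, which overlapped (log2 fold change -0.40, SE 0.28, adjusted p = 0.410, edgeR). Nearest to the threshold were *Vav1*, an exchange factor below the receptor (47.5 ± 11.6 CPM in WT and 89.9 ± 4.42 CPM in AS, adjusted p = 0.0517, edgeR), and *Foxp3*, the factor that defines regulatory T cells (adjusted p = 0.0562, edgeR), both named after their values were seen. *Foxp3* passed the filter on low counts only through its AS libraries, where it was high, so nothing is read from its p. *Foxp3* had 3, 0 and 0 reads in WT-dimtdT and 27, 10 and 14 in AS-dimtdT, and was absent from the brighttdT table.

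The contrast of brighttdT over dimtdT libraries asked where these transcripts lay. They were almost wholly in the dimtdT libraries, whose 10 genes together reached 303 to 485 CPM in WT and 370 to 442 CPM in AS, against 1.35 to 6.91 CPM in WT-brighttdT and 6.23 to 8.36 CPM in AS-brighttdT for the 6 listed. *Lck* was the exception among the 6, with 81, 67 and 13 reads in WT-brighttdT and 72, 99 and 84 in AS-brighttdT, 161 and 255 in all. The other 5 had at most 9 reads in any brighttdT library. The brighttdT table lists no gene whose second-highest count was under 4, so the absence of *Cd3d*, *Cd3e*, *Cd3g* and *Cd4* from it is not a count of 0.

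**Figure D4:**
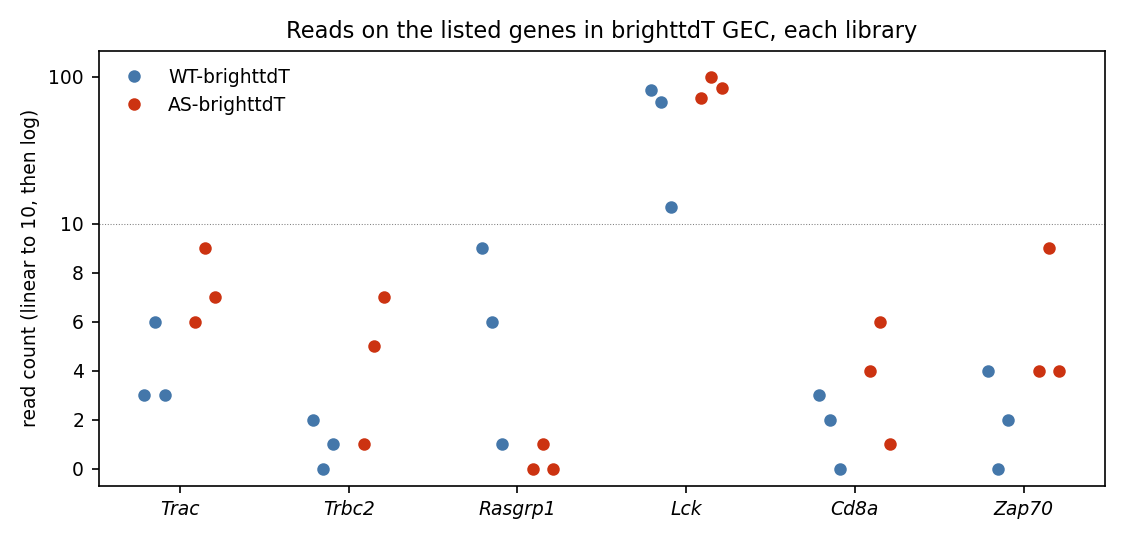
Read counts (y axis, linear up to 10 and logarithmic above) of the 6 genes listed in brighttdT GEC, 1 point for each WT (blue) and AS (red) library. *Lck* lies between 13 and 99 reads, and the other genes between 0 and 9.

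Of the 6 genes in both tables, 6 were lower in brighttdT GEC by edgeR's quasi-likelihood test in WT, beside 11.5% of all genes lower and 13.8% higher, and 6 in AS, beside 26.5% lower and 28.6% higher. Only *Lck* passed the filter on low counts in the brighttdT libraries alone, so the other 5 could enter this test only through their dimtdT counts and had to differ, and nothing is read from the count. *Trac* had a log2 fold change of -8.92 (SE 0.42) in WT and -8.10 (SE 0.28) in AS. *Cd8a* had -7.54 (SE 0.82) and -7.24 (SE 0.41), and *Zap70* had -6.03 (SE 0.73) and -5.05 (SE 0.48), in WT and AS. *Lck* had the smallest falls of the 6, at -2.34 on the log2 scale in WT (SE 0.66, adjusted p = 0.0292, edgeR) and -2.86 in AS (SE 0.27, adjusted p = 1.04e-05, edgeR). In WT the call for *Lck* was lost without WT-dimtdT library 2 (adjusted p = 0.0974) and without WT-brighttdT library 2 or 3 (0.0730 and 0.0816). *Trbc2* had 3 reads in all WT-brighttdT libraries together and 2685 in WT-dimtdT, a scaled ratio of 1070 (95% exact counting interval 366 to 5193), and in AS it had a log2 fold change of -7.66 (SE 0.40). *Rasgrp1* had 1 read in AS-brighttdT and 1739 in AS-dimtdT, a scaled ratio of 1991 (357 to 78692), and in WT it had a log2 fold change of -7.82 (SE 1.11). Both intervals pool the reads of a group and cover counting error only, not the spread between mice.

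Of the signalling list, 27 genes were in both tables, of which 21 passed the filter on low counts in the brighttdT libraries alone. The other 6, *Vav1*, the phosphatase gene *Ptpn22* and the adaptors *Fyb* and *Sh2d2a* among them, entered the test only through their dimtdT counts and had to differ, so they are not counted here. Of the 21, 16 fell and 1 rose in WT, beside 11.5% and 13.8% of all genes, and 16 fell and 2 rose in AS, beside 26.5% and 28.6%, at medians of -3.12 and -3.30 on the log2 scale against -0.04 and 0.02 over all genes. *Ptprc* had log2 fold changes of -8.14 (SE 0.40) in WT and -8.18 (SE 0.39) in AS, and the adhesion receptor *Cd2* had -7.64 (SE 0.28) in AS. Summed over 3 libraries, *Vav1* had 4 reads in WT-brighttdT against 1665 in WT-dimtdT, and *Ptpn22* had 6 against 2083. In AS the sums were 10 against 3385 reads for *Fyb* and 20 against 3761 for *Ptpn22*, and *Sh2d2a* had 1 read in WT-brighttdT against 2073 in WT-dimtdT. *Plcg1*, a phospholipase shared with growth factor receptors, rose in both genotypes, by log2 fold changes of 2.19 (SE 0.31, adjusted p = 9.42e-04, edgeR) and 2.57 (SE 0.24, adjusted p = 1.08e-05, edgeR). *Gata3*, a transcription factor of helper T cells and also of other tissues, rose in AS (2.01, SE 0.27, adjusted p = 1.40e-04, edgeR) and had 0.78 (SE 0.45, adjusted p = 0.240, edgeR) in WT. *Cd247* fell by 3.20 in WT and 3.30 in AS on the log2 scale, with 262, 145 and 196 reads in WT-brighttdT and 114, 135 and 182 in AS-brighttdT. These comparisons in WT and AS share no library, but each sets the 2 subpopulations of the same 3 mice side by side.

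For AS over WT in brighttdT GEC, *Lck* was the 1 gene of the 10 that could be tested. Its WT counts of 81, 67 and 13 overlapped its AS counts of 72, 99 and 84, and WT-brighttdT library 3 was lowest, as was WT-dimtdT library 3 from the same mouse. At 3.70 ± 2.48 CPM in WT and 5.83 ± 0.632 CPM in AS (SD, n = 3 each), the log2 fold change was 0.66 (SE 0.54, adjusted p = 0.509, edgeR), so 0 of 1 was called beside 0.452% of all genes. Without WT-brighttdT library 3 the log2 fold change of *Lck* was 0.16 (adjusted p = 0.876), and without WT-brighttdT library 1 it was 1.07 (adjusted p = 0.335, edgeR). Of the signalling list, 0 of 21 passed and 4 had an unadjusted p under 0.05, beside 21.8% of all genes, while DESeq2 called 2 higher, beside 3.13% of all genes. The test of the difference between the subpopulations, an interaction of genotype and subpopulation over all 12 libraries, called 3.77% of all genes. Of the 6 genes listed in both, 0 were called and 0 had an unadjusted p under 0.05, beside 18.5% of all genes, but 5 of them passed the filter on low counts only through their dimtdT libraries, so *Lck* alone is read. *Lck* had an interaction of -0.46 on the log2 scale (SE 0.71, adjusted p = 0.786, edgeR), brighttdT minus dimtdT, so its change was not shown to differ between the subpopulations, and it was -0.93 without WT-brighttdT library 3 and -0.088 without WT-brighttdT library 1.

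Of 12855 other genes with an average log2 CPM above 1, *Wdr26*, *Hnrnpa3*, *Lrp5*, *Cables2* and *Tcp11l2* came closest to the mean pattern of the 10 genes over the 6 dimtdT libraries, at a root mean square difference of 0.0748 to 0.0916 on the log2 scale. That mean pattern was low in WT library 1 (-0.57) and high in AS library 2 (0.50), each centred on the 6 libraries. The distance of the 10 genes themselves from their mean pattern ran from 0.276 for *Cd3g* and 0.282 for *Cd3d* to 0.746 for *Cd3e*, 0.782 for *Cd4* and 0.993 for *Rasgrp1*. Because the 5 were picked as the closest of many, their distances cannot be set against those of the 10, and all are a description over 6 libraries with no test.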

How the data were processed

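Libraries of poly-A RNA from the dimtdT and brighttdT sorts of 3 WT and 3 AS mice were compared. The authors aligned reads with STAR 2.6.0c to GRCm38.p5 with Gencode M16, and the counts they deposited are reads per gene, not normalized. Each deposited table also held RPKM, fold changes and statistics of the authors' AS over WT comparison, which were not used, and 0 further columns of other samples. The authors' gene lengths add up the exons of all transcripts, so levels per kb here used merged exons of Gencode M21. Counts were tested with edgeR 4.0.16 in R 4.3.3 (TMM, filterByExpr, quasi-likelihood test, Benjamini-Hochberg over all genes, threshold 0.05), and the code was tested on simulated data. Alternatives were RLE, library sizes alone, no filter, DESeq2 1.42.0, a likelihood ratio test, a replicate block, 1 fit of all 12 libraries (AS over WT), each library left out and, added after seeing the data, edgeR's version 3 fit.

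The 10 genes and all lists were chosen with earlier results of these data known. Named from the signalling list were, per comparison, up to 5 genes that passed with the highest and 5 with the lowest log2 fold change, and always *Trbc1*, *Cd247*, *Cd8b1* and *Ptprc*. A gene this rule selects is not reported here. CPM used TMM within a table, with spike-in RNAs left out. Likeness used log2(CPM + 0.5). The dimtdT and brighttdT libraries with 1 number came from 1 mouse per the labels, and their deviations from the group means correlated at 0.0796 to 0.385. Differently numbered pairs of 1 genotype correlated at -0.286 to 0.189, so these ranges overlapped. Same-numbered WT and AS libraries came from different mice.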

Additional observations from a re-analysis of the deposited data

Results flagged for a closer look

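No gene of the T cell receptor set met a criterion here. Both genes used to check the labels differed in their AS over WT change between the subpopulations by the interaction test over all 12 libraries, brighttdT minus dimtdT on the log2 scale. *Col4a5* differed by 4.14 (SE 0.66, adjusted p = 0.00517, edgeR) and *Tek*, the gene whose promoter drives the Cre, by 2.96 (SE 0.44, adjusted p = 0.00432, edgeR). In the dimtdT libraries *Tek* was at 15.8 ± 4.93 CPM in WT and 2.58 ± 0.356 CPM in AS, and in brighttdT GEC at 198 ± 64.8 and 251 ± 11.6 CPM (SD, n = 3 each).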

How the results depend on the processing

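The genes of the T cell receptor set kept 0 calls for AS over WT in both subpopulations and for the interaction, where only *Lck* is read, under all alternatives but DESeq2 and the likelihood ratio test, which called 2 for AS over WT in the dimtdT libraries. For brighttdT over dimtdT, where the filter fixed the outcome for genes other than *Lck*, the call of *Lck* in WT was lost with the version 3 fit (adjusted p = 0.0529) and without WT-dimtdT library 2 or WT-brighttdT library 2 or 3. For AS over WT in the dimtdT libraries, all genes called numbered 1262 and became 2213 with DESeq2, 1946 with the likelihood ratio test, 494 with the replicate block, 582 with the version 3 fit, 2105 with all 12 libraries in one fit and 0 to 1823 with 1 library left out, 0 and 1 without AS-dimtdT library 1 and 3 and 1823 without WT-dimtdT library 3. The signalling list went from 0 to 2 calls with library sizes alone, 5 with DESeq2, 3 with the likelihood ratio test, 1 with all 12 libraries, and 0 to 6 with 1 library left out, 6 without WT-dimtdT library 3. Except in the fit of all 12 libraries, these calls could include *Foxp3* and *Cd40lg*, so nothing is read from them. In brighttdT GEC the 65 genes called became 39 with no filter, 1117 with DESeq2, 827 with the likelihood ratio test, 16 with the replicate block, 0 with the version 3 fit, 139 with all 12 libraries and 0 to 281 with 1 library left out, 0 without WT-brighttdT library 3 or AS-brighttdT library 1 or 3, and DESeq2 called 2 of the signalling list. The 569 interaction calls became 1186 with DESeq2, 1114 with the likelihood ratio test, 877 with the replicate block and 252 to 856 with 1 library left out.

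Some log2 fold changes reversed in sign without passing. *Trac* for AS over WT in the dimtdT libraries was -0.0054 with RLE and -0.0053 with DESeq2, and -0.14 to 0.10 with 1 library left out, *Cd3g* was -0.019 to 0.48 and *Rasgrp1*, at -0.94 with all libraries, -1.38 to 0.66, the last without WT-dimtdT library 3. *Ptprc* in brighttdT GEC was -0.091 to 0.91. The interaction was -0.26 to 0.98 for *Cd8a*, -0.27 to 0.22 for *Cd247* and -0.79 to 0.32 for *Ptprc* with 1 library left out, and for *Ptprc* -0.030 with RLE, -0.12 with library sizes alone, -0.035 with DESeq2 and -0.056 with the replicate block, all on the log2 scale. The replicate block changed no call of a named gene. *Tek* and *Col4a5* in the dimtdT libraries lost their calls without some AS-dimtdT libraries (adjusted p up to 0.113 and 0.0968, edgeR). Why these counts moved was not tested. In brighttdT GEC 5 of the 6 listed genes of the set had 0 to 9 reads in each library and did not pass the filter on low counts. With no filter, 0 of the 6 passed for AS over WT there and 1 had an unadjusted p under 0.05.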
